A study of Danio rerio with 6 samples.

Results

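Cathepsins and legumain are the proteases with which lysosomes break down protein. The set described here holds 10 zebrafish genes: the cathepsin B copies ctsba and ctsbb, the cathepsin L copies ctsla and ctsl.1, ctsc, ctsh, ctsz, the aspartic protease gene ctsd, the serine carboxypeptidase gene ctsa, and lgmn, which encodes legumain. They were taken by name from the 32520 genes counted, and all 10 passed the filter on low counts that left 22386 genes tested. RNA-seq libraries were made from intestinal epithelial cells of zebrafish larvae at 3 and 5 days post fertilization (dpf), with 3 libraries per age, to compare these cells between the ages. All larvae carried TgKI(cldn15la:tdTomato)pd1249, a knock-in that makes red fluorescent protein wherever the gut claudin gene cldn15la is active; both ages share this allele, and non-transgenic animals were not analysed here. Cells came from pools of headless bodies and were sorted for the red protein and against a death dye, so a library is a pool of many animals and may hold any cell that passed the sort.

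In the mammalian enzymes these proteins are known as a division of labour. Cathepsins B and L cut inside protein chains, cathepsin H trims amino acids from the N-terminus, cathepsin C removes dipeptides there, and cathepsins Z and A trim the C-terminus. Cathepsin D starts the breakdown of many substrates, and legumain cuts after asparagine and converts several cathepsins to their mature form. In the larval zebrafish gut, lysosome-rich enterocytes internalise luminal protein through cubilin and its partners and digest it in a large lysosomal vacuole.

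The libraries held 102653637 to 125456069 counted fragments, of which the 10 genes took 46742 to 60314 at 3 dpf and 100602 to 195570 at 5 dpf. Of 12 enterocyte markers 4 were called higher at 5 dpf and 4 lower (median log2 fold change -0.27), or 4 and 7 without 5 dpf replicate 1, 1 and 0 without 3 dpf replicate 1, and 2 and 0 without 3 dpf replicate 2. Those lower were the transcription factor genes cdx1b, HNF4A, ELF3 and GATA6, chosen here after their values were seen. VIL1, the gene of the microvillus protein villin, measured 1189 to 1281 CPM (counts per 1000000, with libraries scaled by TMM factors) at 3 dpf and 1970 to 3453 at 5 dpf. One library stood apart. In 5 dpf replicate 1, mitochondrial genes took 29.2% of counts, against 7.91 to 11.4% elsewhere, its TMM factor was 0.612, against 1.001 to 1.266, and it separated from the other 5 dpf libraries on the second principal component (22.4% of variance). The library titled 3 dpf replicate 3 carries a treatment tag of 4 dpf and was kept with its title. The fold changes of the 10 genes are given with and without 5 dpf replicate 1.

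Between the ages the 10 genes differed in their change. The second cathepsin B and L copies, ctsbb and ctsl.1, went from at most 2.85 CPM in any 3 dpf library to at least 27.3 CPM in every 5 dpf library; ctsh, lgmn and ctsc rose by less; and the genes that were most abundant at 3 dpf, ctsla, ctsd and ctsba, together with ctsa and ctsz, did not pass the test. Of the 10 genes 5 rose and 0 fell, where rose or fell means a Benjamini-Hochberg adjusted p under 0.05 over all genes in edgeR's quasi-likelihood test. For comparison, 18.1% of all genes tested were higher at 5 dpf by that rule, 14.1% lower and 32.1% either. With TMM factors, all 5 dpf libraries lay above all 3 dpf libraries for 8 of the 10 genes and for 26.1% of all genes tested. The overlap of ctsba and of ctsla was not seen with library size as the only scaling, as given below. The median log2 fold change (5 dpf over 3 dpf) was 1.14 over the 10 genes and 0.09 over all genes tested. A call does not order the genes by size of change: ctsz, not called, had an estimate of 1.39 and ctsc, called, one of 0.89. In bulk libraries, more cells of a type and more RNA per cell cannot be told apart.

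**Figure D1:**
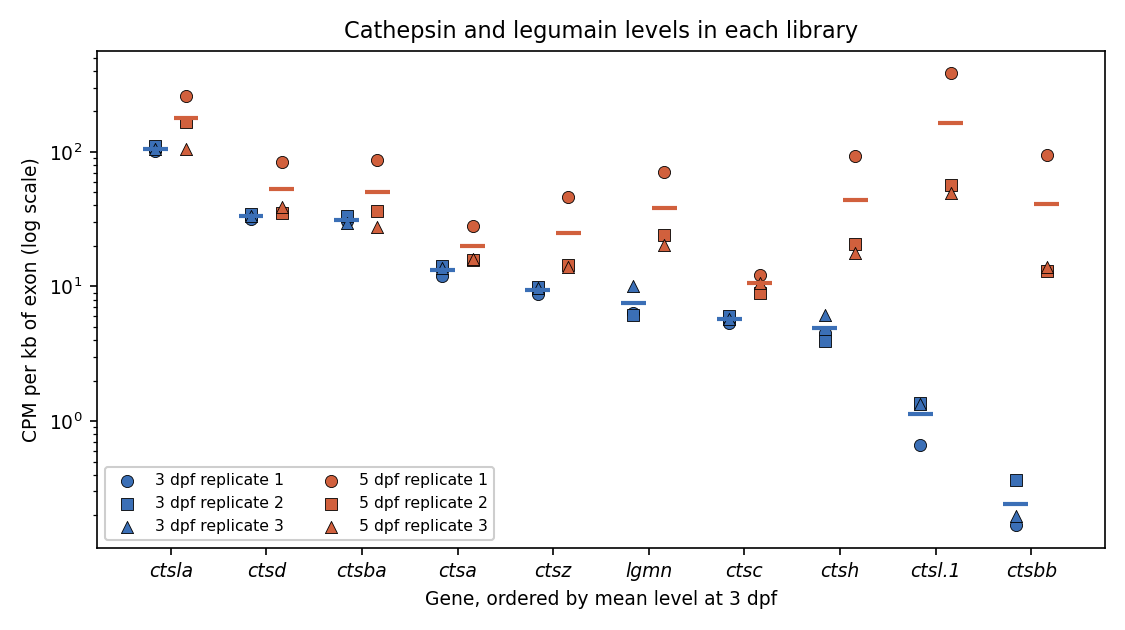
Level of each gene in each library, as TMM-scaled CPM divided by exon length in kilobases (log axis), with genes ordered by their mean at 3 dpf; points are single libraries and bars are means of 3 libraries. ctsbb and ctsl.1 lie lowest at 3 dpf, at 0.168 to 1.36 CPM per kb, and at 13.0 or more in every 5 dpf library.

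The inducible cathepsin B copy was ctsbb (ENSDARG00000101051, chromosome 20, 52886927 to 52902720 of GRCz11, minus strand). Its levels in 3 dpf replicates 1, 2 and 3 were 0.353, 0.769 and 0.413 CPM, from 37, 87 and 52 fragments, against 199.9, 27.3 and 29.5 CPM in the 5 dpf replicates. Every 5 dpf library was far above every 3 dpf library, and 5 dpf replicate 1 was 7.03 times the mean of the other 5 dpf libraries. The mean rose from 0.512 ± 0.225 to 85.6 ± 99.0 CPM (SD, n = 3 per age), a log2 fold change of 7.38 (SE 1.02, edgeR adjusted p = 0.00331). Leaving 5 dpf replicate 1 out gave 5.80 (SE 0.33, edgeR adjusted p = 7.17e-05). With all libraries, the change of ctsbb lay at the percentile 99.6 of all genes tested, and that of ctsl.1 at 99.5.

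The other cathepsin B copy, ctsba, listed under the symbol CTSB (ENSDARG00000055120, chromosome 17, 32622931 to 32631514, plus strand), behaved differently. At 3 dpf its levels were 73.0, 78.8 and 70.5 CPM, against 207.9, 85.8 and 66.0 CPM at 5 dpf. With TMM factors the ages overlapped, since 5 dpf replicate 3 was below all 3 dpf libraries and only 5 dpf replicate 1 was clearly above them. With library size as the only scaling, ctsba did not overlap. It then had 74.5, 78.9 and 78.4 CPM at 3 dpf, against 127.3, 97.4 and 83.5 at 5 dpf. Its log2 fold change of 0.69 (95% interval -0.26 to 1.65) did not pass (edgeR adjusted p = 0.232). With 5 dpf replicate 1 left out it was 0.04 (95% interval -0.33 to 0.41), and without 3 dpf replicate 3 as well it was -0.02. Exons of ctsba overlap those of cgref1 on the opposite strand, and the counting used strand.

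Cathepsin L showed the same split between copies. For both cathepsins the copies were paired by name, and their sequences were not compared. ctsl.1 (ENSDARG00000003902, chromosome 17, 27456804 to 27461321, plus strand) had 1.40, 2.85 and 2.82 CPM at 3 dpf, against 802, 117.8 and 102.8 CPM at 5 dpf. The ages did not overlap, and again 5 dpf replicate 1 was the highest library, at 7.27 times the mean of the other 5 dpf libraries. Its log2 fold change was 7.18 (SE 1.02, edgeR adjusted p = 0.00354), or 5.55 (SE 0.32, edgeR adjusted p = 7.17e-05) without 5 dpf replicate 1. ctsla (ENSDARG00000007836, chromosome 5, 44804791 to 44810920, plus strand) was the most abundant of the 10 genes per length at both ages by mean. It had 211, 231 and 217 CPM at 3 dpf, against 542, 348 and 219.9 CPM at 5 dpf. With TMM factors its ages overlapped through 5 dpf replicate 3, which lay between the 3 dpf libraries. With library size as the only scaling they did not overlap, at 215.4 to 241.2 CPM at 3 dpf and 278.2 to 395.5 at 5 dpf. The log2 fold change of 0.75 (95% interval -0.01 to 1.52) did not pass (edgeR adjusted p = 0.118). It was 0.37 (95% interval -0.09 to 0.84) without 5 dpf replicate 1 and 1.02 without 5 dpf replicate 3, where it passed (edgeR adjusted p = 0.0354).

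The difference between copies was tested on their ratio within each library, in which the scaling of a library cancels. Per length, the log2 ratio of ctsbb to ctsba was -7.49, -6.49 and -7.22 in the 3 dpf libraries, by replicate number, against 0.12, -1.47 and -0.98 in the 5 dpf libraries. In the 5 dpf libraries ctsbb was thus above ctsba in replicate 1 alone and below it, by 2.77-fold and 1.97-fold, in replicates 2 and 3. The mean log2 ratio went from -7.07 ± 0.52 to -0.78 ± 0.82 (SD, n = 3 per age), a difference of 6.29 (two-sided exact permutation p = 0.1). For ctsl.1 against ctsla it went from -6.62 ± 0.54 to -0.71 ± 1.12, a difference of 5.91 (two-sided exact permutation p = 0.1). A p of 0.1 is the smallest that 3 libraries against 3 can give, and it is also 0.1 after adjustment over the 2 ratios. The ratios of the ages did not overlap for either pair, and without 5 dpf replicate 1 the differences were 5.84 and 5.28. In share terms, ctsbb made up 0.545 to 1.09% of cathepsin B transcripts at 3 dpf and 26.5 to 52.1% at 5 dpf, and ctsl.1 made up 0.657 to 1.28% and then 25.2 to 59.5% of the transcripts of the cathepsin L pair. These shares are of CPM per kb.

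**Figure D2:**
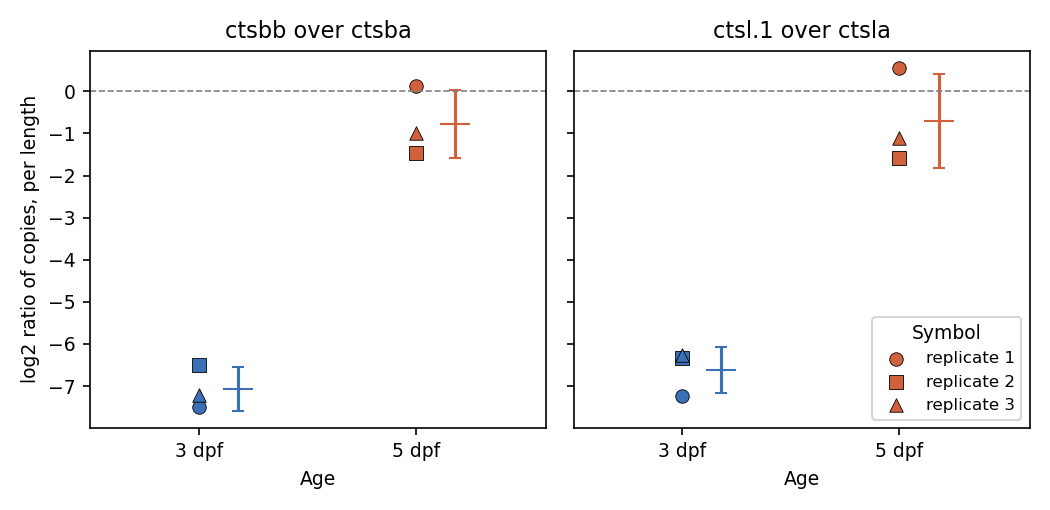
Log2 ratio of the 2 cathepsin B copies and of the 2 cathepsin L copies in each library, per length, with the mean and SD of 3 libraries beside the points; the dashed line marks equal abundance. All 3 dpf ratios lie between -7.49 and -6.27, and all 5 dpf ratios between -1.57 and 0.56.

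Among ctsh, ctsc, ctsz and ctsa, ctsh rose most. ctsh (CTSH, ENSDARG00000041108, chromosome 18, 26422124 to 26428525, plus strand), the aminopeptidase gene, had 6.97, 6.00 and 9.48 CPM at 3 dpf, against 142.7, 32.0 and 27.1 CPM at 5 dpf. The ages did not overlap, and 5 dpf replicate 1 was 4.83 times the mean of the other 5 dpf libraries. The log2 fold change was 3.17 (SE 0.67, edgeR adjusted p = 0.0115), or 1.98 (SE 0.23, edgeR adjusted p = 0.000649) without 5 dpf replicate 1. ctsc (CTSC, ENSDARG00000101334, chromosome 15, 43604032 to 43625549, minus strand), the dipeptidyl peptidase gene, was the rising gene with the smallest change and the least spread. At 3 dpf it had 16.8, 19.1 and 18.1 CPM, against 38.3, 28.3 and 33.6 CPM at 5 dpf, so that the ages did not overlap and 5 dpf replicate 1 was 1.24 times the mean of the other 5 dpf libraries. Its log2 fold change was 0.89 (SE 0.19, edgeR adjusted p = 0.0116) and hardly moved, to 0.79, without 5 dpf replicate 1.

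The carboxypeptidase genes ctsz and ctsa lay on the other side of the threshold. ctsz (CTSZ, ENSDARG00000043081, chromosome 6, 49771372 to 49781362, plus strand) had 20.01, 22.4 and 22.1 CPM at 3 dpf, against 104.8, 32.7 and 31.8 CPM at 5 dpf, with no overlap between the ages. Its log2 fold change was 1.39 (95% interval 0.31 to 2.48, edgeR adjusted p = 0.0553). With 5 dpf replicate 1 left out the estimate was smaller, 0.59, its interval narrower (0.25 to 0.92), and the gene passed (edgeR adjusted p = 0.0129). Over all alternatives tried its edgeR or DESeq2 adjusted p ran from 0.0129 to 0.164, on both sides of the threshold. ctsa (CTSA, ENSDARG00000098114, chromosome 6, 55396807 to 55423220, minus strand) also protects other lysosomal enzymes, in mammals, as part of a complex. At 3 dpf its levels were 24.4, 29.2 and 27.9 CPM, against 57.5, 32.4 and 32.8 CPM at 5 dpf. The ages did not overlap, yet the log2 fold change of 0.59 (95% interval -0.024 to 1.203) did not pass (edgeR adjusted p = 0.125), and it was 0.27 without 5 dpf replicate 1.

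Of the proteases outside the cysteine cathepsins, lgmn rose, and ctsd, like ctsa above, did not pass. lgmn (LGMN, ENSDARG00000039150, chromosome 13, 36037970 to 36050327, minus strand) had 26.2, 25.1 and 41.1 CPM at 3 dpf, against 288.7, 98.8 and 83.3 CPM at 5 dpf. The ages did not overlap, and within 3 dpf the library with the 4 dpf tag was the highest. The log2 fold change was 2.35 (SE 0.51, edgeR adjusted p = 0.0126), 1.57 without 5 dpf replicate 1 and 2.60 without 3 dpf replicate 3. ctsd (CTSD, ENSDARG00000057698, chromosome 18, 16133595 to 16146081, plus strand) had 65.9, 72.3 and 69.5 CPM at 3 dpf, against 176.8, 73.1 and 81.0 CPM at 5 dpf. Its ages were separated by less than 1 CPM, between 3 dpf replicate 2 and 5 dpf replicate 2. The log2 fold change of 0.67 (95% interval -0.13 to 1.48) did not pass (edgeR adjusted p = 0.174) and was 0.16 (95% interval -0.16 to 0.48) without 5 dpf replicate 1.

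**Figure D3:**
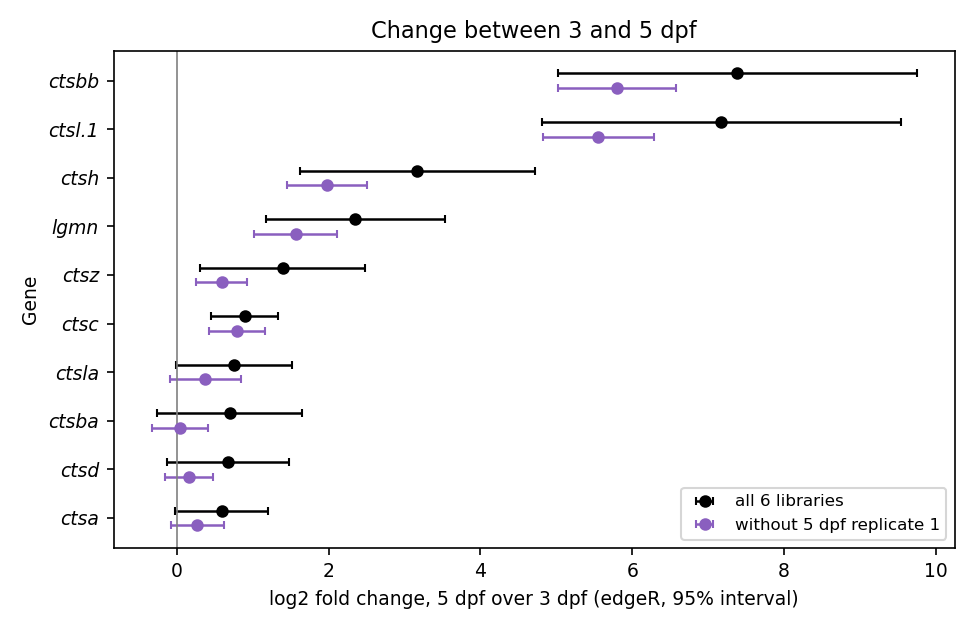
Log2 fold change of each gene between 3 and 5 dpf from edgeR with its 95% interval, with all 6 libraries (black) and without 5 dpf replicate 1 (purple). ctsbb and ctsl.1 lie at 4.81 or above at the lower bound in both fits, and the intervals of ctsla, ctsba, ctsd and ctsa include 0 in both.

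How far these genes count as steady depends on single libraries. For ctsba, ctsd, ctsa and ctsla the intervals with all libraries reach folds of 3.14, 2.78, 2.30 and 2.87, so a change of about that size was not resolved. In the fit that leaves 5 dpf replicate 1 out, their upper bounds were 0.41, 0.48, 0.61 and 0.84 on the log2 scale. In the fit that leaves 5 dpf replicate 3 out, ctsla passed, as given above, and ctsba had a log2 fold change of 0.98 (95% interval 0.10 to 1.86) that was not called (edgeR adjusted p = 0.0978). Without 5 dpf replicate 2 the intervals were 0.065 to 1.33 for ctsa and 0.093 to 1.62 for ctsd, neither called (edgeR adjusted p = 0.101 and 0.0968). With upper quartile scaling they were 0.142 to 1.27 and 0.039 to 1.52, again not called (edgeR adjusted p = 0.0597 and 0.1). The interval of ctsla also lay above 0, without a call, with upper quartile scaling (0.161 to 1.57) and library size alone (0.033 to 1.07). It did so with no filter (0.019 to 1.38), a filter of 1 CPM in 3 libraries (0.104 to 1.65) and without mitochondrial genes (0.007 to 1.45). For ctsa this held, uncalled, with that 1 CPM filter (0.103 to 1.32) and without 5 dpf replicate 3 (0.043 to 1.40). Conversely the calls on ctsh, lgmn and ctsc ended without 3 dpf replicate 1 (edgeR adjusted p = 0.0558, 0.0621 and 0.0759) and without 3 dpf replicate 2 (0.0521, 0.0570 and 0.0520), where 2 of the 10 genes, ctsbb and ctsl.1, still passed. In those fits 7.63% and 9.12% of all genes were called higher. Leaving out 5 dpf replicate 1 gave 6 called, against 24.8% of all genes. The share of all genes called higher was 12.4% without 3 dpf replicate 3, where 5 of the 10 passed, 13.2% without 5 dpf replicate 2, where 6 did, and 13.6% without 5 dpf replicate 3, where 7 did. It was 17.8% with RLE scaling, 11.2% with library size alone, 14.7% with a replicate block and 18.3% without mitochondrial genes, with 5 of the 10 in each. With 6 of the 10 in each, it was 20.8% with upper quartile scaling, 14% with no filter, 19.9% with a filter of 1 CPM in 3 libraries, 22.8% with DESeq2 and 27.4% with 3 dpf replicate 3 and 5 dpf replicate 1 left out together.

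At 3 dpf the 10 genes formed a steep order of level per length. ctsla led with 105.4 ± 4.84 CPM per kb (SD, n = 3), followed by ctsd at 33.1 ± 1.52, ctsba at 31.2 ± 1.79 and ctsa at 13.3 ± 1.21. Below them came ctsz at 9.46 ± 0.57, lgmn at 7.504 ± 2.19, ctsc at 5.72 ± 0.37 and ctsh at 4.88 ± 1.17, with ctsl.1 at 1.12 ± 0.39 and ctsbb at 0.244 ± 0.107 last. Neighbours in that order overlapped over libraries for ctsd with ctsba, ctsz with lgmn, and ctsc with ctsh. At 5 dpf ctsla (177.7 ± 77.9) and ctsl.1 (162.8 ± 190.8) came first and ctsc (10.6 ± 1.59) last, and every neighbouring pair in the order overlapped except ctsa with ctsc. Overlap here compares ranges over libraries, not genes within a library. Within each 5 dpf library ctsl.1 was above ctsd, and within each 3 dpf library ctsd was above ctsba. In 3 dpf replicate 3 alone lgmn was above ctsz and ctsh above ctsc. By mean, ctsl.1 stood ninth at 3 dpf and second at 5 dpf, ctsbb last and then sixth, and ctsc seventh and then last. The sixth place of ctsbb rested on 5 dpf replicate 1: without that library it was the ninth by mean, the ninth in replicate 2 and the eighth in replicate 3, while ctsl.1 was the second in each.

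The make-up of the whole pool of these transcripts changed accordingly. Summed over the 10 genes, the level was 201, 220.4 and 214 CPM per kb in the 3 dpf libraries and 1161, 392 and 314 in the 5 dpf libraries. The sum was higher in every 5 dpf library than in every 3 dpf library. ctsla alone held 48.7 to 50.3% of the pool at 3 dpf and 22.4 to 42.7% at 5 dpf, and ctsl.1 held 0.333 to 0.629% and then 14.4 to 33.0%. ctsd went from 15.5 to 15.7% down to 7.29 to 12.3%, and ctsba from 13.9 to 15.3% down to 7.54 to 9.22%. Of the rise in the mean summed level, ctsl.1 contributed 39.4%, ctsla 17.6%, ctsbb 9.89%, ctsh 9.51% and lgmn 7.5%. When 5 dpf replicate 1 was left out these contributions were 36.6, 22.0, 9.44, 10.2 and 10.4%, so by mean ctsl.1 and then ctsla remained the largest. The part of ctsla then rested on 5 dpf replicate 2, where it had 167.2 CPM per kb. In 5 dpf replicate 3 ctsla had 105.6 CPM per kb, against a 3 dpf mean of 105.4.

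**Figure D4:**
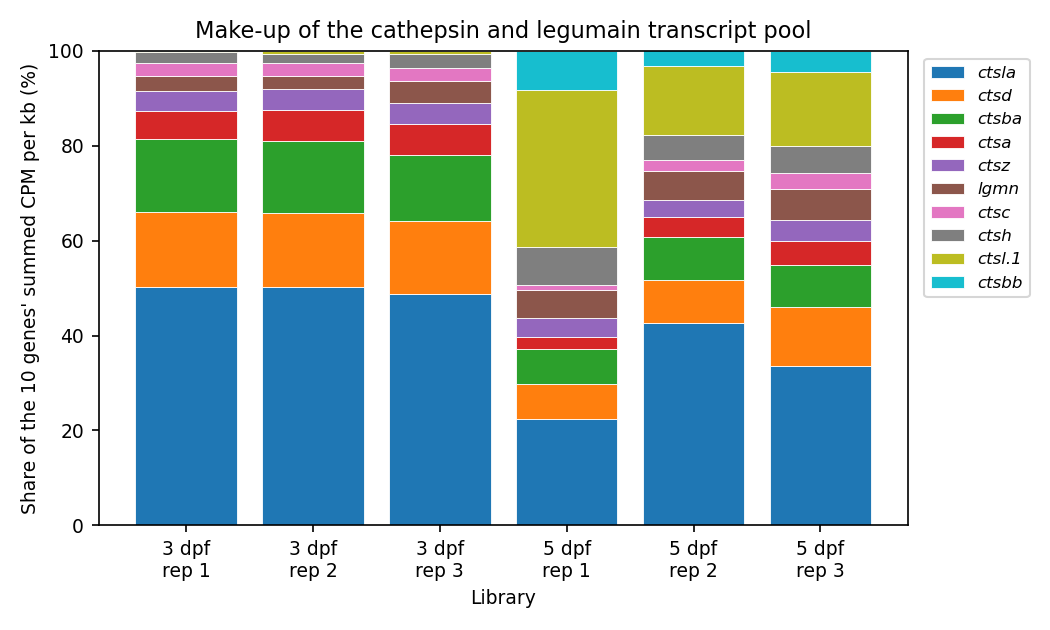
Share of each gene in the summed CPM per kb of the 10 genes, for each library, stacked from the gene most abundant at 3 dpf. The share of ctsl.1 is at most 0.629% in the 3 dpf libraries and at least 14.4% in the 5 dpf libraries.

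With TMM factors and all libraries, replicates spread more at 5 dpf than at 3 dpf for all 10 genes, and for 4 of them between 5 dpf replicates 2 and 3 alone. At 3 dpf the coefficient of variation of CPM was 4.59 to 9.11% for ctsa, ctsba, ctsc, ctsd, ctsla and ctsz, and 24.0 to 43.9% for ctsh, lgmn, ctsl.1 and ctsbb. At 5 dpf it ran from 14.9% for ctsc to 117% for ctsl.1, and between 5 dpf replicates 2 and 3 alone from 0.816% for ctsa to 32.0% for ctsla. Between those 2 libraries it was below the 3 dpf value for the other 6 genes, among them ctsbb at 5.43%, ctsl.1 at 9.64%, ctsh at 11.5% and lgmn at 12%. There a spread of 2 libraries is set against a spread of 3. These spreads also depend on the scaling. With library size alone ctsa had 24.95, 29.25 and 31.05 CPM at 3 dpf and 35.24, 36.82 and 41.51 at 5 dpf. Relative to the mean, that is no larger spread at 5 dpf. TMM factors were 0.612 in 5 dpf replicate 1 and 1.136 and 1.266 in its companions. For any gene, library size thus gives replicate 1 a lower value relative to its companions than TMM factors do. The excess of 5 dpf replicate 1 over the mean of its companions is given under both scalings. With library size as the only scaling it was 0.99-fold for ctsla, 1.17-fold for ctsd, 1.41-fold for ctsba and 0.90-fold for ctsa, against 1.91, 2.30, 2.74 and 1.76-fold with TMM factors. For ctsl.1 and ctsbb it was 3.72 and 3.58-fold with library size and 7.27 and 7.03-fold with TMM factors. With mitochondrial counts left out of the library size, the values for ctsla and ctsl.1 were 1.25 and 4.74-fold. For ctsc the value was 1.24-fold with TMM factors, 0.63-fold with library size and 0.80-fold with mitochondrial counts left out. Under each of these scalings the order from ctsbb and ctsl.1 down through ctsh to ctsla was kept. A change of scaling moves these values by nearly the same factor for every gene, so the kept order is no separate evidence.

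Position on the genome played no part in choosing the genes. ctsa and ctsz share chromosome 6, ctsba and ctsl.1 chromosome 17, and ctsd and ctsh chromosome 18, at distances of 5615, 5162 and 10276 kb with 129, 106 and 234 annotated genes between them. On chromosomes 17 and 18 one gene of each pair rose and the other did not pass the test. The 2 genes with the largest changes, ctsbb and ctsl.1, lie on different chromosomes.

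ctsbb and ctsl.1 followed each other closely. Likeness was measured as the root mean square difference of log2 CPM over the 6 libraries, after each gene was centred on its own mean, among 10211 genes that have a symbol and reach a mean of 10 CPM in either age. The 3 genes closest to ctsbb were MEP1B (ENSDARG00000040683), a meprin metalloprotease gene, at 0.22, apoa4b.3, an apolipoprotein gene, at 0.31 and ctsl.1 at 0.31. The 3 closest to ctsl.1 were apoa4b.3 at 0.27, ctsbb at 0.31 and MEP1B (ENSDARG00000040683) at 0.35. By contrast, the difference between ctsbb and ctsba was 3.18 and that between ctsl.1 and ctsla 3.04. These values largely restate the log2 fold changes, 7.38 and 7.18 for ctsbb and ctsl.1 and 0.69 and 0.75 for ctsba and ctsla. They are thus no separate evidence on the copies. A difference of 0.14 between ctsa and ctsd was the smallest within the set, and ctsh and lgmn differed by 0.37.

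Other cathepsin genes showed smaller or fainter changes. Of 7 tested genes on a list of further cathepsins, 4 rose and 0 fell, with a median log2 fold change of 0.62. ctsf, the cathepsin F gene, had 53.3 ± 6.79 CPM at 3 dpf and rose to 81.8 ± 9.66 (edgeR adjusted p = 0.0428). Cathepsin S copies, genes of antigen-presenting cells in mammals, were faint: ctss2.1 rose from 0.429 ± 0.083 to 1.82 ± 0.85 CPM (edgeR adjusted p = 0.0124) and ctss2.2 from 0.277 ± 0.086 to 3.73 ± 0.77 CPM (edgeR adjusted p = 0.00174). A further cathepsin S copy, ctss1, had means of 0.158 and 0.0586 CPM and was not called. The fourth gene that rose, ctsll, had means under 1 CPM at both ages. In 5 dpf replicate 1 ctss1, ctss2.1, ctss2.2, ctsf, ctsk and ctso lay below the mean of the other 5 dpf libraries with TMM factors, and ctsll lay above it. All 10 genes of the set lay above that mean with TMM factors. With library size ctsa, ctsc and ctsla of the set lay below it, at 0.90, 0.63 and 0.99-fold. Without 3 dpf replicate 1 or 2 in turn, 1 of the further cathepsins was called, and 4 without 5 dpf replicate 1.

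Genes that work with cathepsins were counted by role. Of 7 further lysosomal peptidases 5 rose and 0 fell (median log2 fold change 1.12), among them CPVL, a carboxypeptidase gene, from 13.4 ± 1.15 to 38.8 ± 26.0 CPM and SCPEP1, another, from 14.3 ± 0.683 to 39.5 ± 29.9 CPM; the other 3 were PRCP, DPP7 and GGH. In 5 dpf replicates 2 and 3 alone CPVL had 22.1 and 25.5 CPM and SCPEP1 21.5 and 23.1 CPM. Of these peptidases 0 were called without 3 dpf replicate 1 or 2 in turn, and 6 without 5 dpf replicate 1. Of 13 inhibitor genes 4 rose and 0 fell (median 0.54): cst3, cystatin C, which blocks cysteine cathepsins, rose from 33.2 ± 3.79 to 141 ± 30.8 CPM, and cst14b.1, another cystatin gene, from 2.02 ± 0.239 to 9.78 ± 4.16 CPM, beside a2ml and SPOCK3. A list of 10 uptake genes was drawn up by name with lysosome-rich enterocytes in mind, and 6 of them rose and 1 fell (median 1.35). It was led by CUBN, the cubilin receptor, from 2.198 ± 0.898 to 76.8 ± 72.8 CPM, and lrp2b, a megalin gene, from 8.32 ± 2.08 to 65.8 ± 31.1 CPM. In 5 dpf replicates 2 and 3 CUBN had 27.5 and 42.4 CPM and lrp2b 48.3 and 47.4 CPM. The gene that fell was LRPAP1, a chaperone of these receptors in mammals. Also counted as risen were amn, ldlrap1a, and the faint stab2 and MRC1. At 3 dpf stab2 had 0.413 to 0.668 CPM, against 1.1 to 1.59 at 5 dpf. MRC1 had 0.222 to 0.382 and then 0.616 to 2.55 CPM. On the same list dab2 had 35.22 to 46.75 CPM at 3 dpf and 35.49 to 84.4 at 5 dpf, and was not called (edgeR adjusted p = 0.401). In 5 dpf replicate 1 CUBN, amn, dab2 and lrp2b were 4.59, 3.67, 2.29 and 2.13 times the mean of its companions. The values for stab2, ldlrap1a and MRC1 were 0.79, 0.59 and 0.25. Which cells these transcripts came from was not tested. Of 21 genes of sorting and lysosome membrane 2 rose and 3 fell (median -0.26); CD63 rose from 228 ± 35.3 to 604 ± 198 CPM, and SORT1 (ENSDARG00000029402), sortilin, fell from 33.4 ± 3.53 to 13.4 ± 6.02 CPM, while LAMP2 also rose and the retromer genes VPS26A and VPS26B (ENSDARG00000015823) also fell; a second gene listed as VPS26B (ENSDARG00000055433) was not called. Of 17 regulators 2 rose and 0 fell (median 0.07); MTOR stood at 97.6 ± 1.68 and 83.8 ± 9.84 CPM and rragca at 47.5 ± 1.88 and 41.7 ± 17.7 CPM, neither past the test, and the genes that rose, MITF (ENSDARG00000037833) and FNIP2, had means below 5 CPM at both ages. Without 5 dpf replicate 1 the inhibitors had 5 higher, the uptake genes 7 higher and 1 lower, the sorting list 5 and 6, and the regulators 4 and 1; without 3 dpf replicate 1, 0 regulators were called, as without 3 dpf replicate 2. The sorting list then had 1 higher and 0 lower in either case, the inhibitors 2 and 3 higher, and the uptake genes 2 and 3 higher and 0 lower.

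Markers of other cells moved with age as well. Of 16 tested leukocyte markers 10 rose and 0 fell, their summed level going from 197.5 to 221 CPM at 3 dpf to 349 to 482 CPM at 5 dpf, with c1qb at 0 counts at 3 dpf. Of that sum cd68 alone held 157.6 to 177 CPM at 3 dpf and 176.5 to 250.8 CPM at 5 dpf. The largest sum was that of 5 dpf replicate 1. Of the 19 leukocyte markers matched, 18 were called higher without 5 dpf replicate 1, and 6 without 3 dpf replicate 1. The most abundant leukocyte marker was cd68, at 169.7 ± 10.5 and 206 ± 39.5 CPM (edgeR adjusted p = 0.344), and csf1ra, the macrophage receptor gene, had 0.324 to 0.557 CPM at 3 dpf, against 0.327, 4.39 and 4.63 at 5 dpf. Within 5 dpf, the median log2 ratio of replicate 1 to its companions was -0.06 over all genes tested. It was 1.56 over the 10 protease genes and 0.72 over the enterocyte markers. It was -1.09 over the leukocyte markers, -2.02 over the mesenchyme markers, -0.83 over exocrine pancreas and -0.51 over hepatocyte markers. Over hatching gland and periderm markers it was 1.14, over pronephric tubule markers 0.27 and over the uptake genes -0.25. These ratios depend on the scaling, with TMM factors of 0.612 in replicate 1 and 1.136 and 1.266 in its companions. Exocrine pancreas markers rose in 10 of 11 tested, with prss59.2 the most abundant, from 5.15 to 6.65 CPM in sum at 3 dpf to 320 to 951 CPM at 5 dpf. Without 5 dpf replicate 1, 10 of them were higher and 1 lower. Mesenchyme and muscle markers rose in 16 of 18, with 1 lower, from 558 to 839 up to 1441 to 3041 CPM. Leaving out 3 dpf replicate 1 gave 10 mesenchyme and muscle markers higher, and 5 dpf replicate 1 16. The most abundant of them, TAGLN, was not called (edgeR adjusted p = 0.809). The list of hatching gland and periderm had 3 of 6 higher and 1 lower, that of hepatocytes 6 of 17 higher and 2 lower, and that of pronephric tubule 1 of 17 higher and 3 lower. The most abundant gene of each, krt4, apoa2 and atp1a1a.4, was not called. Without 5 dpf replicate 1 the filter kept 23197 genes rather than 22386, so the numbers tested above do not hold there. In that fit these lists had 4, 8 and 1 higher and 3, 3 and 3 lower, and 24.8% of all genes tested were higher. The part of these cells in the changes of the protease genes was not tested.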

How the data were processed

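The deposited files hold raw fragment counts per gene, made by the authors with no normalization. The annotation was Ensembl release 115 of GRCz11, and featureCounts 1.6.3 assigned pairs by strand (setting 2) to the exons of each gene, per the file headers, which show no option to count reads that fit several places or genes. The submitters' processing notes also name Trimmomatic 0.38, STAR 2.7.11 and Subread 1.6.3. Symbols came from a table that names 29201 of the 32520 genes: 3 members matched as written, 6 with letter case ignored and ctsba as CTSB. The members and lists were chosen with earlier results of these data known.

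All genes were fitted with edgeR 4.0.16 in R 4.3.3 by its two-sided quasi-likelihood test with age as the only term, with TMM factors, filterByExpr (minimum count 10, minimum total 15) and Benjamini-Hochberg adjustment at 0.05. The code was tested on simulated data. Intervals are 95%. A prior count of 2 entered log2 CPM, and one of 0.5 the copy ratios. Named genes were the members, the further cathepsins called at 1 CPM or more, from each other list up to 2 called genes with the largest changes at 5 CPM or more (with none, the 2 most abundant), from each marker list the most abundant, and the 3 profiles closest to ctsbb and ctsl.1; csf1ra, c1qb and the called genes given without values were chosen after their values were seen. The values of amn, dab2, ldlrap1a, stab2 and MRC1 were also added after they were seen. Alternatives were other scalings and filters, DESeq2 1.42.0, a replicate block and each library left out. Each library is a pool, so a p-value reflects variation among pools alone.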

Additional observations from a re-analysis of the deposited data

How the results depend on the processing

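Of the 10 genes, 5 rose with TMM, RLE or library size scaling and with mitochondrial genes left out, and 6 with upper quartile scaling, no filter, a filter of 1 CPM in 3 libraries, DESeq2, or without both 5 dpf replicate 1 and 3 dpf replicate 3, the sixth being ctsz. Leaving out each library in turn gave 2 to 7 genes called, all of them higher. With library size alone ctsz passed and ctsc did not (edgeR adjusted p = 0.0463 and 0.112). In 1 case a direction reversed: ctsba at -0.02 without both libraries. These 2 added alternatives, that pair left out and mitochondrial genes left out, were chosen after seeing the data.

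The differences in copy ratio were 6.25 and 5.90 with a prior count of 2, and 5.77 and 5.45 without both libraries. No label ties equal replicate numbers to a shared day, and the pairs of equal number had correlations of 0.09, -0.22 and 0.19 across genes, after the mean of each age was removed. With a replicate block 5 of the 10 genes rose, as without it, and the copy ratios differed by 6.29 and 5.91 (exact sign-flip p = 0.25, the smallest 3 pairs allow).

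The median log2 fold change over all genes was 0.22 with upper quartile scaling and 0.09 with TMM. Upper quartile scaling made 65.3% of all calls higher, against 56.2% with TMM; with library size it was 65.3%. The cause of these shifts was not tested. For ctsbb at 3 dpf the depth gave 37 to 87 fragments per library.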

Other observations

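A group of 8 cathepsin L-like genes on chromosome 12, among them ctslb and ctslb.4, was looked at after its values were seen. The gene ctslb is known from the zebrafish hatching gland. Their sequences were not compared here, and the counting shows no option for reads that fit several genes, so levels of single genes are uncertain. Together they had 856, 43 and 3 counts in 3 dpf replicates 1, 2 and 3, and 1, 0 and 4 counts in the 5 dpf replicates. The 3 he1 genes, which encode hatching enzymes, had 1260, 430 and 19 counts at 3 dpf and 7, 10 and 4 at 5 dpf. Both groups were thus highest in 3 dpf replicate 1 and lowest, within 3 dpf, in the library with the 4 dpf tag. A further gene of the family, cts12, had 7, 16 and 42 counts at 3 dpf and 54, 15 and 10 at 5 dpf, with no change past the test (edgeR adjusted p = 0.65).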
